A study of Mus musculus with 120 samples.

Results

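The chaperones, disulfide isomerases and regulators of the endoplasmic reticulum (ER) were followed through 10 genes, Hspa5, Hsp90b1, Calr, Canx, Pdia3, Pdia4, Pdia6, Ppib, Xbp1 and Herpud1. They are the rows with these symbols in a table of 23481 gene symbols by 120 libraries, a list set by name and not by its values. All 10 had counts, from 4548 for Calr and 2430 for Hspa5 down to 95 for Herpud1, and 11742 in all. The filter on low counts (about 10 counts in a library of median size, in at least as many libraries as the smallest group) left 1832 genes, among them Hspa5, Hsp90b1, Calr, Canx and Pdia3. Pdia3 reached 10 counts in 1 library, so it and the 5 genes below the filter are described mainly by their counts.

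The libraries are 3′ digital gene expression libraries of bone marrow-derived macrophages, cells grown in culture from marrow progenitors. All came from wild-type marrow of male C57BL/6 mice 12 weeks old and were transduced with a virus pool of 58 transcription factor reporters, so the controls carry these reporters too. Halofuginone was given at 2.4, 9.7, 39, 156, 625, 2500 or 10000 nM, without or with 2 mM proline, at each of the time labels T0, T1 and T4, with 2 libraries per dose, arm and time. Each time also has 12 control libraries, which makes 45 groups. Per the series' design, a small molecule preceded lipopolysaccharide (LPS, a bacterial product that activates macrophages) by 30 minutes. The time labels carry no unit, and the labels do not say which libraries received LPS, how long T0 cells had been with the drug, or whether any control received proline. The controls of T1 and T4 are therefore called by their labels. No label says that the libraries of a group were separate cultures, and p-values then measure the spread between these libraries, which may be technical.

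Secreted and membrane proteins fold in the ER. Hspa5 (BiP) is its HSP70 chaperone and holds the stress sensors of the unfolded protein response inactive, Hsp90b1 (GRP94) is its HSP90 chaperone and is needed for Toll-like receptors and integrins to mature, and Calr (calreticulin) and Canx (calnexin) bind sugars on unfinished glycoproteins. Pdia3 (ERp57) works with those lectins on disulfide bonds, Pdia4 (ERp72) and Pdia6 (P5) are further disulfide isomerases, and Ppib (cyclophilin B) is a prolyl isomerase. Xbp1 encodes the transcription factor activated when Ire1 splices its mRNA, and Herpud1 encodes a membrane protein of ER-associated degradation. When unfolded proteins accumulate, Atf6, Ire1 with Xbp1, and Perk with Atf4 raise such genes. Halofuginone blocks the joining of proline to its tRNA by the glutamyl-prolyl-tRNA synthetase, which is known to activate the amino acid response through Gcn2 and Atf4, and added proline competes with the drug.

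The promoters of the 4 members with most counts are printed because each holds an ER stress response element (ERSE), the motif through which the Atf6 and Xbp1 factors are known to raise chaperone genes. The motif searched on both strands was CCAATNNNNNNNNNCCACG, in the 300 bases from 250 before to 50 after the RefSeq start, build GRCm38.p6. It stands in 5 of 10 member promoters and in 39 of 32851 promoters of this length (0.119%). The windows lie at chr2:34771840-34772139 on the plus strand, chr10:86705395-86705694 on the minus strand, chr8:84846882-84847181 on the minus strand and chr11:50325624-50325923 on the minus strand. They are written 5′ to 3′ on the gene's strand, with the motif (or its reverse complement) in capitals.
Hspa5: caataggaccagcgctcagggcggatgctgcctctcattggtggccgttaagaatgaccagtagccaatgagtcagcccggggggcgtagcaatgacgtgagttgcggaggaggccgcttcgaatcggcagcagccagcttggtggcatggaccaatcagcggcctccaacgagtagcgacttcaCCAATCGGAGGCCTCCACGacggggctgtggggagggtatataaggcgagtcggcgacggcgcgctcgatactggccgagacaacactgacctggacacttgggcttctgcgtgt
Hsp90b1: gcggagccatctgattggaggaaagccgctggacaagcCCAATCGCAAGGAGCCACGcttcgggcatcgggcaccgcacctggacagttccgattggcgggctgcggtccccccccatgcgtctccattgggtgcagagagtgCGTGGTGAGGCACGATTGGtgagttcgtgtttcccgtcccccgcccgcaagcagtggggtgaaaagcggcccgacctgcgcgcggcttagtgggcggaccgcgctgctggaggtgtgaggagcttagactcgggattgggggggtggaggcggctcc
Calr: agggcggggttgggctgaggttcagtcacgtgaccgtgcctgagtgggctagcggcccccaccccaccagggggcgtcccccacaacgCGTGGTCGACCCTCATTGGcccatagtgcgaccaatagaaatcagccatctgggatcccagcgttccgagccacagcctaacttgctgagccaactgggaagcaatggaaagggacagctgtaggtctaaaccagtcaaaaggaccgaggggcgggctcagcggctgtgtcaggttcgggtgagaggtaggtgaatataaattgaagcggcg
Canx: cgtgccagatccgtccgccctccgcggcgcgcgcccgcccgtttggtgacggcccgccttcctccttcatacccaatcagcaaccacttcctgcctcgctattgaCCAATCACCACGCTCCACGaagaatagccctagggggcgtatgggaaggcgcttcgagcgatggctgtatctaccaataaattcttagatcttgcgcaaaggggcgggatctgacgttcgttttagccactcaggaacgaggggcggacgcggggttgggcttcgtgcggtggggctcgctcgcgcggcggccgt
The motif begins 65 bases before the start in Hspa5, 145 before it in Canx, and 162 before it on the opposite strand in Calr. Hsp90b1 has it at 212 bases before the start and again, on the opposite strand, at 107. Pdia6 is the fifth member with the motif, 98 bases before its start. Herpud1 has the related ERSE-II (ATTGGNCCACG, 0.0365% of promoters) 52 bases before its start and the Atf4-type core TGATGNAA (3.97% of promoters) on the opposite strand at 112. The Xbp1-type core TGACGTGG (0.676% of promoters) is in none of the 10 windows. A match describes letters and not a bound site.

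The genes themselves are protein coding and lie apart from one another in the mouse annotation (GENCODE vM21, GRCm38): Hspa5 (chr2:34771970-34777547, plus strand), Hsp90b1 (chr10:86690209-86705509, minus strand), Calr (chr8:84841850-84846934, minus strand), Canx (chr11:50293961-50325673, minus strand), Pdia3 (chr2:121413775-121438687, plus strand), Pdia4 (chr6:47796141-47813430, minus strand), Pdia6 (chr12:17266545-17284770, plus strand), Ppib (chr9:66060222-66066623, plus strand), Xbp1 (chr11:5520659-5525893, plus strand) and Herpud1 (chr8:94386438-94395377, plus strand). These bounds come from a different annotation than the RefSeq starts used for the promoters and need not match them. Calr and Herpud1 share chromosome 8, Canx and Xbp1 chromosome 11, and Hspa5 and Pdia3 chromosome 2. A 3′ count reads each gene mainly at its last exon, so spliced and unspliced Xbp1 mRNA are counted together.

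Depth was low, and lower at high dose at each time. Libraries held 20000 to 114061 counts, with a median of 49515, and 8 of 120 held fewer than 30000. Apart from the structural RNA Rn45s, controls held a median of 28116, 30175 and 42946 counts at T0, T1 and T4, and libraries at 625 to 10000 nM 17292, 12521.5 and 15502.5. Rn45s took a median of 48.2%, 45.5% and 39.3% of counts in controls at T0, T1 and T4, and 61.2%, 62.0% and 64.7% at 625 to 10000 nM. All 8 macrophage markers in the table had counts in controls, with a median summed level of 1935, 2450.4 and 2117 CPM (counts scaled to library size) at T0, T1 and T4, and 1787, 1534 and 961 at 625 nM and above. The summed level of 8 neutrophil markers had medians of 412, 401 and 237 CPM in controls and 61.9, 44.6 and 59.4 at those doses. These shares move with dose beside every result at 39 nM and above, and their part in those results was not tested. In bulk libraries fewer cells and less RNA per cell cannot be told apart. CPM here use library sizes scaled by the trimmed mean of M values (TMM), differences are log2 values from edgeR's quasi-likelihood test with Benjamini-Hochberg adjustment over all 1832 genes, and a gene is called at an adjusted p under 0.05.

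In the controls, Hspa5 was higher at the later times and the glycoprotein chaperones were lower. Hspa5 had a mean of 299 ± 73.6 CPM (SD, n = 12) at T0, 483 ± 142 at T1 and 667 ± 156 at T4. Its lowest, median and highest libraries were 193, 292 and 415 CPM at T0, 215, 453 and 777 at T1, and 444, 673 and 901 at T4. All 12 T4 controls were above all 12 T0 controls, while T1 overlapped both. Hspa5 rose from T0 to T1 by 0.71 (SE 0.20, adjusted p = 0.00572) on the log2 scale and from T0 to T4 by 1.161 (SE 0.19, adjusted p = 9.31e-08). The call at T1 ended under median-of-ratios scaling, at 0.50 with an adjusted p of 0.0811, a scaling that also moved the median of all genes from -0.054 to -0.26, and it ended with DESeq2, at 0.50 with an adjusted p of 0.0596. The T4 call held under each alternative run.

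Calr, Canx and Hsp90b1 fell from T0 to T4. Calr controls spanned 519 to 1683 CPM (median 1081) at T0, 448 to 1515 (815) at T1 and 518 to 1126 (611) at T4. Canx controls spanned 154 to 406 CPM (median 266) at T0, 78.1 to 345 (218) at T1 and 69.1 to 252 (147) at T4. Hsp90b1 controls spanned 264 to 1274 CPM (median 599) at T0, 244 to 1053 (421) at T1 and 178 to 996 (376) at T4. For each of the 3 genes the medians fell at each step while the T0 and T4 libraries overlapped. From T0 to T4, Calr changed by -0.52 (SE 0.19, adjusted p = 0.0159), Canx by -0.75 (SE 0.23, adjusted p = 0.00324) and Hsp90b1 by -0.65 (SE 0.24, adjusted p = 0.0136) on the log2 scale. With Hspa5, 4 of the 5 members tested were called at T4, where 56.7% of the 1832 genes were called and the median of all genes was -0.14, against -0.65 for the 5. At T1 only Hspa5 was called among the 5, where 12.1% of all genes were called. The 3 falls lost their call with no filter on low counts (Calr -0.34, Canx -0.57 and Hsp90b1 -0.46, adjusted p 0.201, 0.159 and 0.133). The Calr call also ended without T0 control replicate 5 (-0.43, adjusted p 0.0522) and the Hsp90b1 call without T0 control replicate 10 (-0.52, adjusted p 0.0582).

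From T1 to T4 Hspa5 differed by 0.45 (SE 0.18, adjusted p = 0.0325) and Canx by -0.59 (SE 0.23, adjusted p = 0.0256), where 49% of all genes were called. Both calls ended with no filter on low counts, with adjusted p of 0.0814 for Hspa5 and 0.285 for Canx, and that of Hspa5 with 1 mean per dose band (0.0542). They also ended without single controls. That of Hspa5 ended without T1 replicate 1, 4 or 8 or T4 replicate 3, 8 or 12, with adjusted p from 0.0521 to 0.0775, and that of Canx without T1 replicate 8 or 12 or T4 replicate 10, with adjusted p from 0.0534 to 0.0616.

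**Figure D1:**
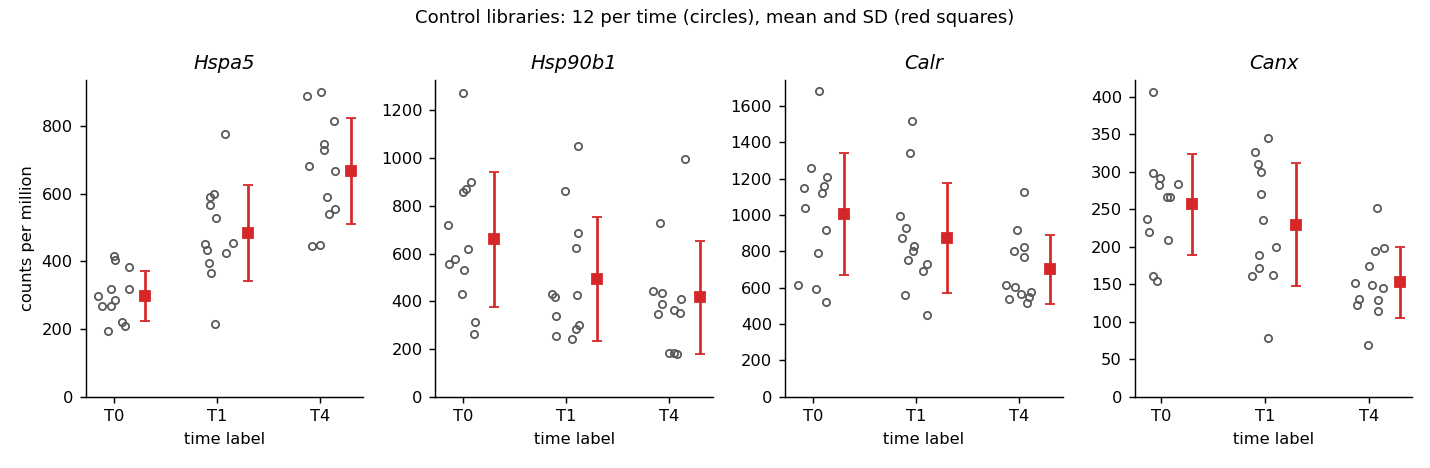
CPM of Hspa5, Hsp90b1, Calr and Canx in the 12 control libraries at each time label, each point 1 library, with the mean and SD. Hspa5 climbs from a mean of 299 to 667 CPM with no overlap between T0 and T4, while the other 3 move down and overlap.

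Among the 5 members above the filter, 1 was called at 625, 2500 and 10000 nM halofuginone, Hspa5 at T4, which was lower than in controls. Ppib and Xbp1, which lie below the filter, are given further on. Without proline the 6 libraries, 2 per dose in that order, held 630.1, 734, 211, 153, 555 and 241 CPM of Hspa5. With proline they held 383, 176, 232, 598, 895 and 572 CPM. In each arm 3 of 6 libraries were below the lowest T4 control (444 CPM) and 5 of 6 below the control median, and the arms overlapped the controls. The log2 difference from the 12 T4 controls was -0.82 (SE 0.26, adjusted p = 0.00686) without proline and -0.54 (SE 0.25, adjusted p = 0.0774) with it. The median of all genes was -0.84 and -0.79 in those comparisons, so in this fit Hspa5 without proline lay at the level of the median gene. That median depends on the fit, and was -0.53 without proline under median-of-ratios scaling. With 1 mean per dose band and no filter on low counts, Hspa5 was -0.56 (adjusted p 0.331) against a median of -0.40. The call ended under median-of-ratios scaling, DESeq2, separate fits per time, 1 mean per dose band, no filter on low counts and replicate 2 of the treated groups left out, with values from -0.78 to -0.34 and adjusted p from 0.0604 to 0.242. With proline, it appeared without replicate 2 at 2500 nM (-0.83, adjusted p 0.0207) and without the 10000 nM libraries (-0.84, adjusted p 0.0265).

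The other members above the filter were not called at these doses at any time. Of all genes, 29%, 27.1% and 44.2% were called at T0, T1 and T4 without proline, and 31.4%, 28.1% and 41.3% with it. Among the 5 members tested, edgeR called 0, 0 and 1 without proline and 0 at each time with it. At an unadjusted p under 0.05 these counts were 1, 1 and 2 and 1, 0 and 1. Of all 1832 genes, 734, 691 and 924 passed that unadjusted threshold without proline and 722, 688 and 894 with it. The share of all genes under DESeq2 is not given here or below. DESeq2 called 0, 0 and 0 without and 0, 0 and 1 with proline. The median log2 difference of all genes without proline was -0.38, -0.65 and -0.84, and that of the 5 members was -0.42, -0.48 and -0.05. With proline it was -0.21, -0.49 and -0.79 for all genes and -0.048, -0.14 and 0.22 for the members. A median over 5 genes describes them and was not tested. A group of 2 libraries without any count leaves a gene's difference unbounded in this fit, which touched 12.1% to 25.3% of genes in these comparisons and, of the members, Pdia3.

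Calr, the calcium-binding lectin of the lumen, varied widely between single libraries at the high doses and was not called. At T0 without proline its 6 libraries held 387, 2721, 413, 597, 380.4 and 647 CPM, of which 5 were below the control median and the sixth, replicate 2 at 625 nM, was above every control. The same library held 54.4 CPM of Hspa5, below every T0 control. With proline the T0 libraries held 1373, 750.3, 1759, 1185, 1735 and 1262 CPM, 5 of 6 above the control median. The log2 difference from controls was -0.42 (SE 0.27, adjusted p = 0.239) without proline and 0.40 (SE 0.24, adjusted p = 0.195) with it. Leaving out that 1 library gave -1.11 without proline (adjusted p 0.00489). At T4 Calr held 810.1, 2060.3, 301, 765, 773 and 276 CPM without proline and 1531, 235, 666, 1421, 732 and 512 with it. These 12 values lay on both sides of the control range, 518 to 1126 CPM, with 4 below it and 3 above. The T4 differences were 0.083 (SE 0.27, adjusted p = 0.833) without and 0.30 (SE 0.25, adjusted p = 0.352) with proline. Without proline the value was called in a fit of T4 alone (0.56, adjusted p 0.0448), and with proline under median-of-ratios scaling (0.67, adjusted p 0.0174), with DESeq2 (0.66, adjusted p 0.0371) and in that fit (0.76, adjusted p 0.00512).

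Canx, the membrane-bound lectin, was not called at high dose. Without proline its lowest, median and highest libraries at 625 to 10000 nM were 116, 179 and 326 CPM at T0, 161, 219.6 and 445 at T1, and 60.0, 135 and 260.5 at T4. The groups overlapped the controls at each time. Its log2 differences were -0.34 (SE 0.33, adjusted p = 0.460), 0.11 (SE 0.33, adjusted p = 0.835) and -0.0069 (SE 0.35, adjusted p = 0.988) at T0, T1 and T4 without proline. With proline they were 0.044 (SE 0.30, adjusted p = 0.939), -0.14 (SE 0.32, adjusted p = 0.782) and 0.22 (SE 0.34, adjusted p = 0.640).

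**Figure D2:**
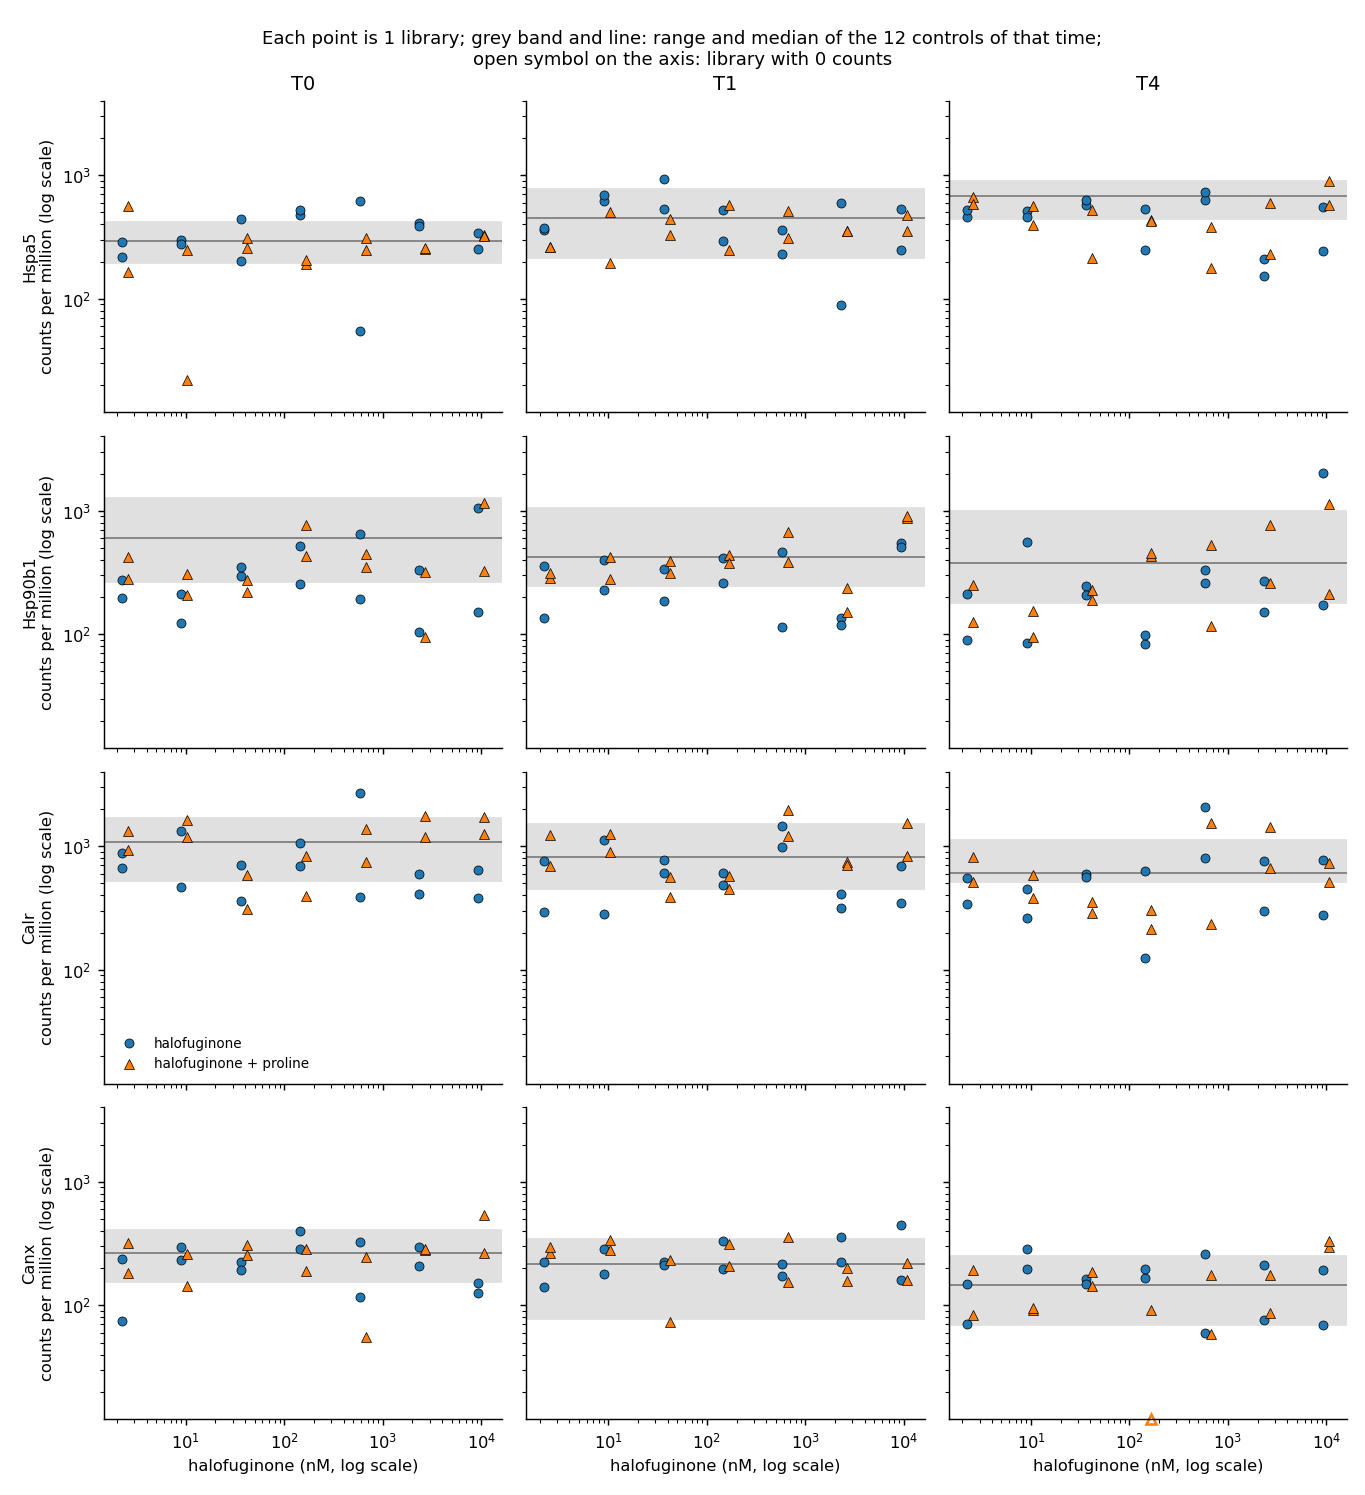
CPM (log axis) of Hspa5, Hsp90b1, Calr and Canx against halofuginone dose in nM (log axis) at T0, T1 and T4, each point 1 library without (circles) or with (triangles) proline, over the range (grey) and median (line) of the 12 controls. At T4 every Hspa5 library at 2.4 to 156 nM lies below the control median, and Hsp90b1 at 10000 nM reaches 2004 CPM in 1 library.

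In edgeR's test, proline made no called difference for a member at 625 nM and above or at 39 and 156 nM, at any time. At an unadjusted p under 0.05 edgeR gave 1, 1 and 0 members at the high doses and 1, 1 and 0 at 39 and 156 nM. Of all 1832 genes, 159, 165 and 198 passed that threshold at the high doses and 203, 240 and 299 at 39 and 156 nM. DESeq2 called 0, 0 and 0 members and 0, 0 and 0. Few genes were called at all: 0.109%, 0% and 0% of genes were called between the arms at the high doses and 1.2%, 0.546% and 3.71% at 39 and 156 nM. Among Hspa5, Hsp90b1, Calr and Canx the largest differences at the high doses were those of Calr, higher with proline by 0.83 (SE 0.30, adjusted p = 0.430) at T0 and by 0.83 (SE 0.34, adjusted p = 0.416) at T1. Without replicate 2 at 625 nM halofuginone the T0 value was 1.51 with an adjusted p of 0.0128. Hspa5 differed between the arms by -0.21 (SE 0.35, adjusted p = 0.974), 0.21 (SE 0.35, adjusted p = 0.988) and 0.28 (SE 0.33, adjusted p = 0.881) at T0, T1 and T4.

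The change of the high-dose difference between times, taken over both arms, was not called for a member either. At an unadjusted p under 0.05 edgeR gave 2 members from T0 to T4 and 0 from T0 to T1, against 547 and 264 of all 1832 genes. DESeq2 called 1 and 0 members. From T0 to T4 it was -0.74 (SE 0.31, adjusted p = 0.0790) for Hspa5 and 0.87 (SE 0.38, adjusted p = 0.0959) for Hsp90b1, of opposite sign, where 19.7% of all genes were called. From T0 to T1 it was -0.46 (SE 0.32, adjusted p = 0.574) and 0.27 (SE 0.41, adjusted p = 0.953), with a background of 4.91%. The T4 value of Hsp90b1 passed under median-of-ratios scaling (1.28, adjusted p 0.00665) and with DESeq2 (1.27, adjusted p 0.0257). It also passed, at 0.99 to 1.19, without T0 control replicate 6, T4 control replicate 10, replicate 1 of the 10000 nM libraries of either arm at T0, replicate 2 of those at T4, or the T0 library of 625 nM named above. That of Hspa5 passed, at -0.91 to -0.87, without the same T0 library of 625 nM, without T4 replicate 1 at 10000 nM, or without T4 replicate 2 at 2500 nM or replicate 1 at 625 nM with proline.

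**Figure D3:**
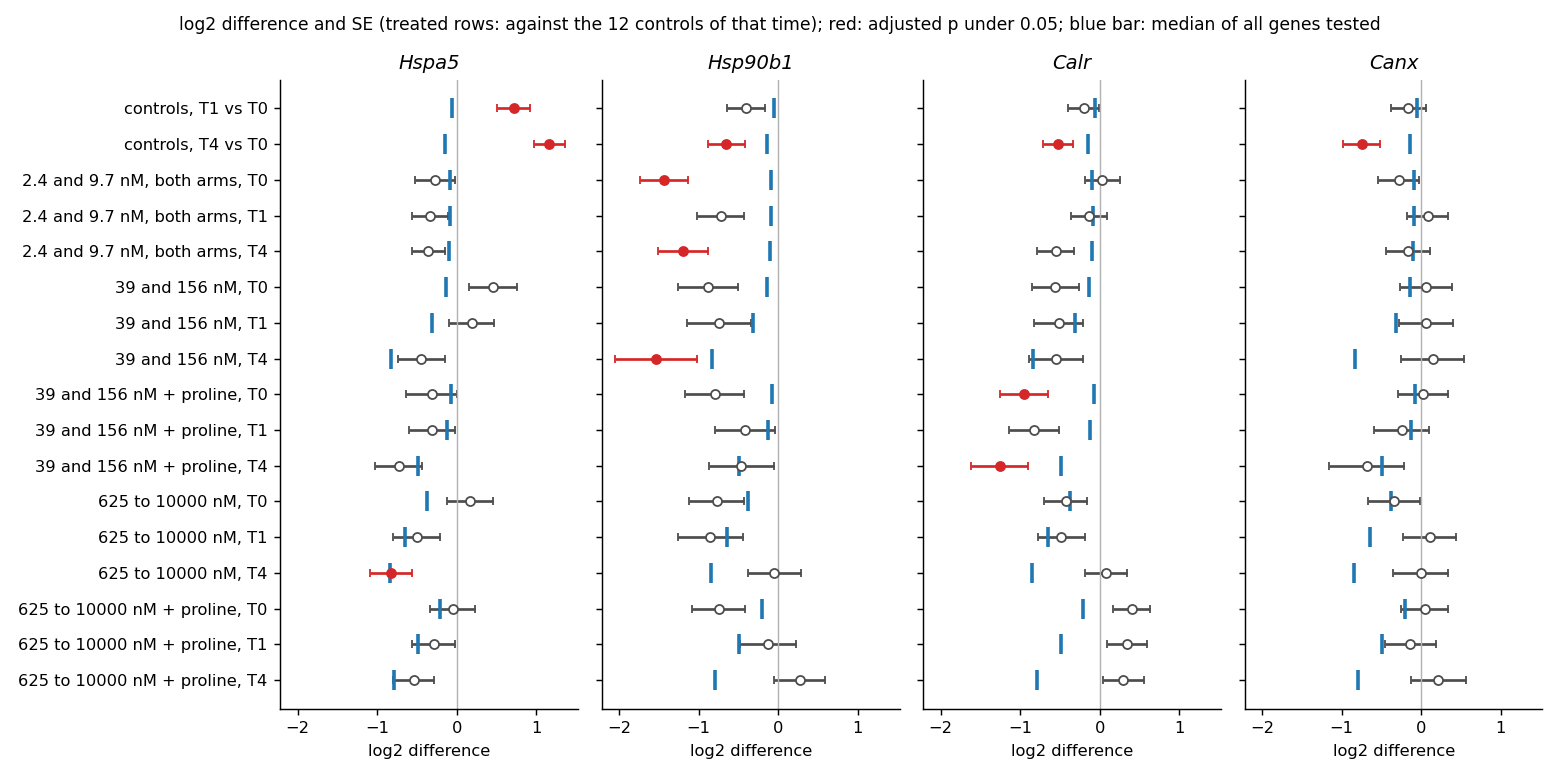
log2 difference and SE of the 4 members with most counts: controls of T1 and T4 against T0, and treated libraries against the 12 controls of their time. Filled red points passed an adjusted p of 0.05 and the blue bar is the median of all genes tested: Hspa5 stands to the right of it in the controls, and Hsp90b1 far to its left at 2.4 and 9.7 nM.

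Hsp90b1, the HSP90 chaperone of Toll-like receptors, was lower than in controls at the 2 lowest doses. At T0 the 4 libraries of 2.4 and 9.7 nM held 277, 196, 124 and 212 CPM without proline and 424, 279.7, 207 and 306 with it. All 8 were below the control median (599 CPM) and 4 of 8 below the lowest control (264 CPM). At T4 they held 89.1, 213, 85.1 and 554 CPM without proline and 249, 126, 153 and 94.4 with it, 7 of 8 below the control median and 5 of 8 below the lowest control. Over both arms, Hsp90b1 was lower, with log2 differences of -1.43 (SE 0.30, adjusted p = 0.00227) at T0 and -1.20 (SE 0.31, adjusted p = 0.0181) at T4. At T1 the difference was -0.72 (SE 0.29, adjusted p = 0.322). At these doses 0.382%, 0.382% and 1.69% of all genes were called at T0, T1 and T4, and Hsp90b1 was the 1 member of 5 called at T0 and at T4. Rn45s took a median of 44.7% of counts at T0 and 35.9% at T4 at these doses, below the controls.

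The size of the Hsp90b1 difference at low dose changed little between settings, while its call did. With 1 library per dose and arm it was -1.46 (adjusted p 0.0864) or -1.52 (adjusted p 0.0521) at T0. At T4 it was -1.18 with 1 mean per dose band (adjusted p 0.0587) and -1.15 without replicate 1 of the treated groups (adjusted p 0.186). Without T4 control replicate 10, the highest control, it was -1.01 (adjusted p 0.0790), and without T4 control replicate 7 it was -1.09 (adjusted p 0.0503). The other members above the filter were not called at low dose. All 8 T4 libraries still held less Hspa5 than the control median, from 396 to 664 CPM against 673, a difference of -0.35 (SE 0.21, adjusted p = 0.537).

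At 39 and 156 nM the 2 members called lower were Hsp90b1, without proline, and Calr, with it. Hsp90b1 at T4 without proline held 244, 208, 83.1 and 99.1 CPM, all below the control median, and differed from controls by -1.53 (SE 0.51, adjusted p = 0.0136). Calr at T4 with proline held 352, 286, 215 and 305 CPM, all 4 below the lowest control (518 CPM), and differed by -1.26 (SE 0.36, adjusted p = 0.00897). At T0 with proline Calr held 308, 589, 833 and 396 CPM, 2 of 4 below the lowest control, and differed by -0.95 (SE 0.30, adjusted p = 0.0323). Of all genes, 20%, 18.6% and 33.9% were called at T0, T1 and T4 without proline and 8.19%, 7.37% and 15.6% with it. Over both arms Calr was below the control median in 8, 8 and 7 of 8 libraries at T0, T1 and T4. Hspa5 was below it in 8 of 8 at T4. At T0 Hspa5 held 204, 441, 479.6 and 522 CPM without proline, 3 of 4 above the highest control (415 CPM), and 308, 258, 190.4 and 206 with it, 3 of 4 below the control median. Neither arm was called, with log2 differences of 0.46 (SE 0.30, adjusted p = 0.295) without and -0.32 (SE 0.32, adjusted p = 0.645) with proline, and the arms differed by -0.77 (SE 0.38, adjusted p = 0.434).

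Each of these calls rested on few libraries. That of Hsp90b1 ended without either 156 nM library (-1.48 and -1.60, adjusted p 0.0602 and 0.0635), with DESeq2 (-1.28, adjusted p 0.0573) and in a fit of T4 alone (-1.11, adjusted p 0.0837). That of Calr at T4 ended without either 156 nM library (-1.16 and -1.41, adjusted p 0.0590 and 0.0525). That at T0 ended without 39 nM replicate 1, 156 nM replicate 2 or T0 control replicate 5 or 6, with values from -0.88 to -0.71. It also ended with no filter on low counts (-0.90, adjusted p 0.113), with the replicate number as a block (-0.94, adjusted p 0.0530), with 1 mean per dose band (-0.93, adjusted p 0.0687) and without structural RNAs (-0.88, adjusted p 0.0537). Without libraries under 30000 counts the T4 calls of Hsp90b1 (-1.43, adjusted p 0.0741) and Calr (-1.10, adjusted p 0.0636) ended. Without proline, Calr at T4 reached -1.37 (adjusted p 0.0379) without 156 nM replicate 2, and Hspa5 with proline reached -1.12 (adjusted p 0.0395) without 39 nM replicate 1.

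Across the 7 doses Hsp90b1 went up with dose at T4. At 10000 nM the 2 libraries held 2004 and 172 CPM without proline and 1139 and 211 with it at T4, where in both arms replicate 1 was above the highest control and replicate 2 near the lowest. At T0 they held 1057 and 152 CPM without and 1157 and 323 with proline, and at T1 544 and 509 and 868 and 913. The trend per 10-fold dose, over both arms, was 0.54 (SE 0.11, adjusted p = 1.64e-05) at T4 and 0.25 (SE 0.11, adjusted p = 0.0701) at T0 on the log2 scale. The T4 trend fell to 0.30 (adjusted p 0.0696) without replicate 1 at 10000 nM halofuginone, and to 0.18 (adjusted p 0.663) without replicate 1 of every treated group. That at T0 passed, at 0.29 to 0.33, without replicate 1 at 2500 nM or replicate 2 at 10000 nM in either arm. Calr had a trend of 0.20 (SE 0.085, adjusted p = 0.0466) at T4, lost without any 1 of 9 of the T4 libraries of 39, 625, 2500 and 10000 nM and lowest, at 0.11, without 10000 nM halofuginone replicate 1. Trends were called in 32.8%, 29.7% and 43.4% of all genes at T0, T1 and T4, with a median of -0.23 at T4.

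Against controls, Hsp90b1 at 625 nM and above was spread too widely to be called. Its lowest, median and highest libraries at T0 were 103, 261 and 1057 CPM without proline and 94.2, 336 and 1157 with it. At T4 they were 151, 264 and 2004 CPM without and 117, 395 and 1139 with proline, overlapping the controls on both sides. The T0 differences were -0.78 (SE 0.34, adjusted p = 0.0761) and -0.75 (SE 0.33, adjusted p = 0.0773), and the T4 differences -0.05 (SE 0.33, adjusted p = 0.927) and 0.27 (SE 0.33, adjusted p = 0.529). At T0 the gene was called without 10000 nM replicate 1, 2500 nM replicate 2 or 625 nM replicate 2 (-1.42 to -1.14), and with proline without 10000 nM replicate 1, 2500 nM replicate 2 or T0 control replicate 9 (-1.16 to -0.82). Both T0 differences were called under median-of-ratios scaling (-0.82 and -0.82, adjusted p 0.0439 and 0.0348) and without the 10000 nM libraries (-0.999 and -1.14, adjusted p 0.0465 and 0.0185). At T1 the differences were -0.85 (SE 0.41, adjusted p = 0.114) and -0.13 (SE 0.35, adjusted p = 0.808). Hspa5 at T1 was -0.50 (SE 0.29, adjusted p = 0.205) without proline, and -1.10 (adjusted p 0.0268) without 2500 nM replicate 2.

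Ppib, the cyclophilin of the ER lumen, held 0 counts at T4 at 625 nM and above. The 12 T4 controls held 48 counts, 0 to 8 each with a median of 55.2 CPM, and all 12 libraries at 625 nM and above held 0. The 4 libraries of 39 and 156 nM without proline also held 0, while the 4 with proline held 9 counts and the 8 of 2.4 and 9.7 nM held 26. A count of 0 allows up to 3 counts over the 12 libraries, a floor of 7.48 CPM against a pooled 56.0 CPM in controls, so Ppib was at least 7.48-fold lower at that floor, with the controls' pooled level taken as it stands, a limit that covers counting error only. A two-sided exact permutation test of CPM gave p = 7.54e-04 in each arm (6 against 12 libraries), or 0.0101 after adjustment over 40 permutation tests. In an edgeR fit with 1 mean per dose band and no filter on low counts (the unfiltered dose-band fit), both arms were called, with adjusted p of 0.00430 without and 0.00607 with proline over 13826 genes, where 6.03% and 5.32% of genes were called in either direction and 4.85% and 4.05% lower. With the 45 group means and no filter both arms were called too, with adjusted p of 0.00465 and 0.00699.

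At T0 and T1 Ppib was present at these doses. At T0 the 12 controls held 49 counts, the 6 libraries without proline 7 and the 6 with it 4. At T1 these counts were 47, 4 and 4. Pooled over both arms that was 27.1 CPM (13.5 to 48.5) at T0 against 77.9 CPM (57.6 to 103) in controls, with exact Poisson 95% intervals, and 24.96 CPM (10.8 to 49.2) at T1 against 69.5 CPM (51.1 to 92.4). With proline the exact permutation p was 0.00162 at T0 and 0.00452 at T1, and without it 0.125 and 0.165. After adjustment over the 40 tests these were 0.0162, 0.0362, 0.320 and 0.330. The unfiltered dose-band fit called neither time (adjusted p 0.503 and 0.404 without and 0.130 and 0.309 with proline).

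Xbp1, the transcription factor of the Ire1 branch, had most counts in T4 controls and few in T4 libraries at 625 nM and above. The 12 controls held 33, 38 and 74 counts at T0, T1 and T4, or 52.5 CPM (36.1 to 73.7), 56.2 CPM (39.8 to 77.1) and 86.3 CPM (67.7 to 108) pooled, and the T4 value was not called above T0 (permutation p 0.0839). Each T4 control had 3 to 14 counts. At 625 nM and above the 6 T4 libraries without proline held 5 counts in all and the 6 with proline 2, with a count in 2 of 6 in each arm. The exact permutation p was 0.0149 without and 4.31e-04 with proline, or 0.0595 and 0.0101 after adjustment over the 40 tests. The unfiltered dose-band fit called the arm with proline (adjusted p 0.0287) and not the other (0.169). With the 45 group means and no filter both arms were called, with adjusted p of 0.0482 without and 0.0170 with proline, where 86 genes were called higher and 803 lower without proline and 65 and 654 with it, of 13826. The 2 libraries of 625 nM without proline and the 2 of 2500 nM with it held 0 counts, which leaves these 45-group differences unbounded. The arms were not shown to differ (0.955 for the difference in the dose-band fit). At 2.4 and 9.7 nM the 8 T4 libraries held 10 counts, 21.5 CPM pooled, which was not called in the dose-band fit (adjusted p 0.0960) and was called with the 45 group means (0.0481), where 5 genes were called higher and 15 lower. The 2 libraries of 9.7 nM without proline held 0 counts, so that 45-group difference is unbounded too. At 39 and 156 nM without proline the T4 libraries held 4 and 4 counts, 56.7 and 73.6 CPM pooled, and were not called (adjusted p 0.919 and 0.946 in those fits). With proline the 4 libraries of these doses held 1 count (0.129 and 0.0787). At T0 the high-dose arms held 3 and 2 counts and at T1 1 and 4, none called in either fit, and at T0 the 2 libraries of 39 nM with proline held 7 counts, 70.1 CPM pooled.

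The disulfide isomerases did not move as a group. Pdia3 held 47, 24 and 33 counts in the controls of T0, T1 and T4, and 26, 21 and 6 in the 12 libraries at 625 nM and above, where 1 T0 library had 13 of the 26. Pooled at T4 that was 15.0 CPM (5.49 to 32.6) against 38.5 CPM (26.5 to 54.0) in controls. Pdia4 held 31, 22 and 36 counts in controls and 25, 23 and 14 at the high doses, or 71.8 CPM (45.5 to 108) at T1 against 32.5 CPM (20.4 to 49.3). Its permutation p at T1 was 0.380 without and 0.236 with proline. Its 8 permutation tests gave p from 0.0444 to 0.640. The lowest belonged to a fall at T4 with proline, 3 counts against 36 in controls, and was 0.161 after adjustment over the 40 tests. Pdia6 held 34, 29 and 22 counts in controls. At T0 the 6 libraries without proline held 2, all in 1 library (exact permutation p 0.00593, adjusted 0.0395), and the 6 with proline 7 (0.121, adjusted 0.320). None of the 3 isomerases passed in the unfiltered dose-band fit at the high doses, where the adjusted p of Pdia6 at T0 without proline was 0.216.

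Herpud1, which carries both an ERSE-II and an Atf4-type core in its promoter, had the fewest counts. The controls held 9, 5 and 6 counts at T0, T1 and T4. At 2.4 and 9.7 nM the 8 libraries held 11, 19 and 8, and at T1 all 8 had a count against 5 of 12 controls. The pooled T1 level was 47.3 CPM (28.5 to 73.9) against 7.39 CPM (2.40 to 17.3), and the unfiltered dose-band fit did not call it (adjusted p 0.680). At 625 nM and above the 12 libraries held 5 and 6 counts at T0 and T1 and 0 at T4. With 6 counts in the T4 controls, a fall there was not detectable at this depth (exact permutation p 0.185 in each arm).

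**Figure D4:**
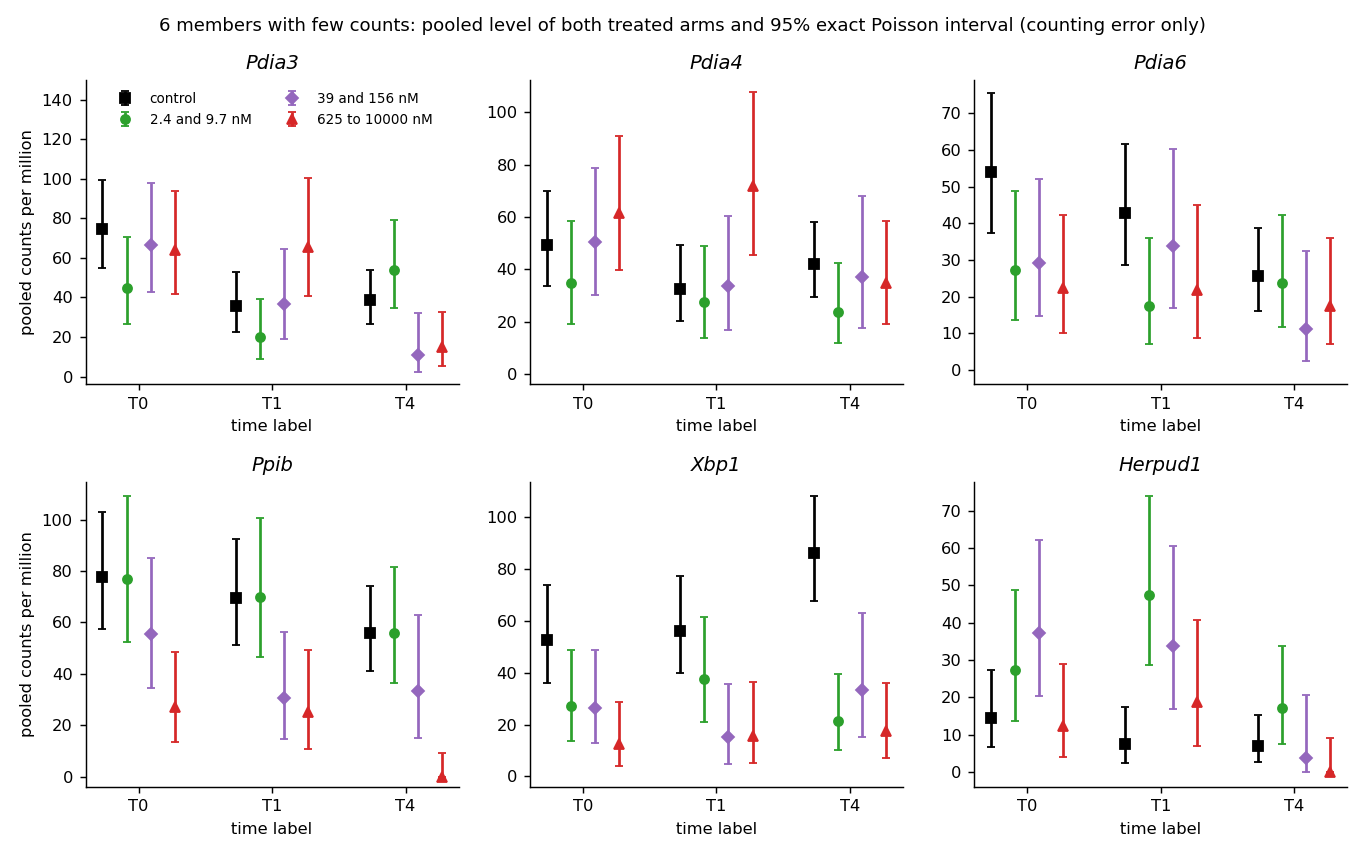
Pooled CPM, with exact Poisson 95% intervals for counting error, of the 6 members with few counts in controls and in 3 dose bands (both arms together) at each time label. Ppib at 625 to 10000 nM is 0 at T4 against 56.0 in controls, and Xbp1 is 17.5 against 86.3.

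Of 41 further folding and disulfide genes listed, 37 were in the table and 4 were tested, and all 4 fell from T0 to T4 in the controls, where 56.7% of all genes were called. They were Erp29, an ER protein of the thioredoxin fold (-1.76), Cnpy2 (-1.58), P4hb, the main disulfide isomerase (-1.05), and Os9, a lectin that marks glycoproteins for degradation (-0.89, log2 values). Their median was -1.32 against -0.14 for all genes. Hspa5 was the 1 gene called higher at T4 among these 4 and the 5 members tested. At high dose 0 of the 4 were called without proline at any time, where 29%, 27.1% and 44.2% of all genes were called. With proline 1 fell at T0 (Os9) and 1 at T1 (P4hb), where 31.4% and 28.1% of all genes were called. In each of these 2 calls 1 treated group held 0 counts, which leaves the difference unbounded.

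Of 26 genes of ER-associated degradation, 22 were in the table and 3 were tested. Vcp, the ATPase that pulls misfolded proteins out of the ER membrane, was the 1 called at 625 nM and above. It was lower at T0, T1 and T4, with log2 differences of -1.62, -1.67 and -3.10 without proline and -2.40, -1.49 and -1.90 with it. Of 32 genes of the translocon, signal peptidase and N-glycosylation, all in the table, 9 were tested. Of these 3, 2 and 5 fell at T0, T1 and T4 without proline and 3, 3 and 5 with it, and 0 rose, where 29%, 27.1% and 44.2% of all genes were called without proline and 31.4%, 28.1% and 41.3% with it. Magt1, a subunit of the oligosaccharyltransferase, was lower without proline, at -2.30 at T0 and -2.36 at T4, and Sec62, a translocon partner, at -1.79 and -1.68. Many of this list's calls include a group at 0 counts, which leaves the difference unbounded. At T1 every call in either arm did. At T4 every call but those of Magt1 and Sec62 did without proline, and every call but that of Sec62 with it. The list's median at T4 was -1.75 without proline against -0.84 for all genes.

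Most of the tested genes in a list of stress sensors and transducers rose at high dose at T0. There edgeR's test called none of the 5 tested members higher. Of 18 sensors and transducers, all in the table, 6 were tested: Atf4, Ddit3, Ppp1r15a, Ppp1r15b, Nfe2l2 and Tmbim6. The ER stress sensors Atf6, Ire1 and Perk were not among them. At T0 without proline 4 rose and 1 fell, where 29% of all genes were called. Atf4, the transcription factor of the amino acid response, rose by 2.00 on the log2 scale. Its targets Ddit3 (CHOP) and Ppp1r15a (GADD34, which restores translation) rose by 2.43 and 1.95, and Nfe2l2, a factor of the oxidative stress response, by 1.38. Tmbim6, a membrane protein that limits ER stress, fell by 1.52 on that scale. With proline the T0 values of the same 5 genes, in that order, were 1.82, 2.05, 1.71, 1.52 and -1.27. By T4, 1 rose and 2 fell in each arm, against 44.2% of all genes called without and 41.3% with proline, Ppp1r15a being the 1 that rose, by 2.02 without and 2.09 with proline. The high-dose difference of Atf4 was lower at T4 than at T0, by a difference of -2.34, and 3 of the 6 were called lower in this test, where 19.7% of all genes were called. Among those 3, Ddit3 and Nfe2l2 had groups at 0 counts. In the controls Ppp1r15a rose by 3.44 from T0 to T1, and Ppp1r15b and Tmbim6 by 2.03 and 0.77 from T0 to T4. At high dose the treated comparisons of 1 time share their 12 controls, and the T0 comparison shares none with T4.

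Over the 45 group means of log2 CPM, which share dose, time and depth, the members were weakly alike. Pearson's r between pairs of the 5 tested members ran from -0.19 (Hspa5 with Calr) to 0.34 (Calr with Canx), and Calr with Hsp90b1 stood at 0.34. The genes most like Calr among the 1832 were Ncl (r 0.72), Ptma (r 0.71) and Itgb5 (r 0.68). Those most like Hspa5 were Nfkb1 (r 0.63), Slc15a3 (r 0.61) and Sdc4 (r 0.60), and those most like Hsp90b1 were Fam175b (r 0.63), Diap1 (r 0.56) and Slk (r 0.56). These correlations are descriptions, given without a test.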

How the data were processed

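RNA of 120 macrophage libraries was measured by 3′ digital gene expression. The authors deposited raw counts per gene symbol in 1 table, with all 120 columns mapped by title, and per the submitters' processing notes they used BWA and mm10. How reads were counted, on which annotation and strand, and whether UMIs were collapsed, is not given in the sources used here. 0 pairs of libraries held identical counts.

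edgeR 4.0.16 (R 4.3.3) fitted 45 group means on all libraries, with TMM scaling, filterByExpr at a minimum count of 10, the quasi-likelihood test and Benjamini-Hochberg adjustment over 1832 genes within each of 29 comparisons. Doses were averaged as 2.4 and 9.7 nM (both arms), 39 and 156 nM, and 625 to 10000 nM. SE is the log2 difference over the root of F, and log2 levels add a prior count of 3. On simulated counts the test recovered 63.3% of 2-fold and 98.0% of 4-fold changes for the T4 controls against T0, 36.3% and 82.7% for high dose at T4, and 42.7% and 93.3% for low dose at T0 (1832 genes). These counts were drawn at the fit's trended spread, which was also given to the test, with no extra spread particular to a gene. The rates therefore do not cover genes that vary more than the trend. Genes below the filter were tested by two-sided exact permutation (100000 resamples for 12 against 12) and by a fit with 1 mean per dose band and no filter, added after seeing the data. The 40 permutation p-values were adjusted by the Benjamini-Hochberg method. Poisson intervals are exact at 95% and cover counting error only. The alternatives tried were DESeq2 1.42.0, median-of-ratios scaling, fits without the filter or per time, replicate blocks, and fits with libraries or RNAs left out. Named genes are the members, up to 4 called genes per list with the smallest adjusted p, and the 3 genes most alike to each of the 3 members of highest level. Values are given for list genes without a group at 0. The members and lists were chosen with earlier results of these data known. Promoters are RefSeq's (GRCm38.p6), and all 10 members matched. Python 3.11.15 and scipy 1.17.1 were used.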

Additional observations from a re-analysis of the deposited data

How the results depend on the processing

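Counts of members called (of 5 tested, or 10 without a filter) were small, so 1 gene moves them: 307 of 388 alternative counts stayed within 1.5 times of the count reported, 81 did not, and no member's called difference changed sign. Median-of-ratios scaling moved it from 1 to 0 at control T1 against T0 and high dose T4, from 0 to 1 at high dose T0, high dose with proline T0, high dose with proline T4 and the change of the high-dose difference to T4, from 0 to 2 at middle dose T0. DESeq2 moved it from 1 to 0 at control T1 against T0, high dose T4 and middle dose T4, from 0 to 1 at high dose with proline T4, the dose trend T1 and the change of the high-dose difference to T4. No filter on low counts moved it from 4 to 1 at control T4 against T0, from 2 to 0 at control T4 against T1, from 1 to 2 at high dose T4 and low dose T4, from 0 to 2 at high dose with proline T4, from 1 to 0 at middle dose with proline T0. Separate fits moved it from 0 to 1 at high dose with proline T0, high dose with proline T1, high dose with proline T4, middle dose T0, the dose trend T0 and the dose trend T1, from 1 to 0 at middle dose T4. The replicate number as a block moved it from 1 to 2 at middle dose T4, from 1 to 0 at middle dose with proline T0 and low dose T4, from 0 to 1 at the dose trend T0. The same dose, arm and number over times as a block moved it from 0 to 1 at the change of the high-dose difference to T4. Leaving out Rn45s and other structural RNAs moved it from 1 to 0 at middle dose with proline T0, from 0 to 1 at the dose trend T0. Leaving out libraries under 30000 counts moved it from 1 to 0 at middle dose T4 and middle dose with proline T4. Leaving out 10000 nM moved it from 0 to 1 at high dose T0, high dose T1, high dose with proline T0, high dose with proline T4 and the change of the high-dose difference to T4. 1 mean per dose band moved it from 2 to 1 at control T4 against T1, from 1 to 0 at high dose T4, middle dose with proline T0 and low dose T4, from 1 to 2 at middle dose T4. 1 mean per dose band without a filter moved it from 4 to 1 at control T4 against T0, from 2 to 0 at control T4 against T1, from 0 to 2 at high dose with proline T4, from 1 to 0 at middle dose T4 and middle dose with proline T0. Leaving out single libraries, or replicate 1 or 2 of the treated groups, gave 0 to 2 at control T4 against T1, high dose T0, middle dose T4, middle dose with proline T4, the dose trend T4 and the change of the high-dose difference to T4, 0 to 1 at high dose T1, high dose T4, high dose with proline T0, high dose with proline T4, proline at high dose T0, middle dose with proline T0, low dose T0, low dose T4 and the dose trend T0. The causes were not tested. The rise of Hspa5 in T4 controls kept its call under each of these settings. Same-numbered controls correlated over 0.1 in 5, 9 and 7 of 12 pairs for T0 with T1, T0 with T4 and T1 with T4. Their median r, over the 500 genes of highest level, was 0.092, 0.14 and 0.13, against -0.010, -0.015 and -0.017 for controls of other numbers. Same-numbered libraries of the 2 arms at 1 time correlated over 0.1 in 2, 1 and 0 of 7. The main fit did not pair libraries by number, so any link between same-numbered libraries over times is left out of its p-values. For single genes, r of same-numbered libraries was averaged over the 3 pairs of times, in controls and in differences between treated replicates. It was 0.42 for Calr, 0.33 for Hsp90b1, 0.25 for Pdia3, 0.21 for Canx and -0.011 for Hspa5, against a median of 0.052 over genes. Calr ranked 22 and Hsp90b1 74 of 1830. In controls of T1 and T4, Calr had an r of 0.82 (permutation adjusted p 0.0186 over 30 tests, and 0.251 by rank correlation). With the number as a block, Hsp90b1 at low dose T4 was -1.11 (adjusted p 0.162). The dose bands and the block over times were chosen after seeing the data. Depth limits Ppib, Xbp1, Herpud1 and the 3 isomerases to large changes, and the libraries of 2.4 and 9.7 nM were left out only by replicate number.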
